A study of Homo sapiens with 24 samples.

Results

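The chemokine CCL2 and the chemokine receptors CCR1, CCR2, CCR6, CCR7, CCR9, CXCR4 and CXCR5 were followed in leukemia cells exposed to the BET inhibitor JQ1. These are 8 of the 14232 genes that the array measures with a probe group (a transcript cluster) of a single gene symbol. CCL2 was chosen from the data, because its difference between JQ1 and DMSO in MUTZ-5 cells was the most negative of all called genes, at -2.66 log2 units. The next gene, ITGA8, stood at -2.63. The 7 receptors were chosen for their known part in guiding B cells, with earlier results of these arrays in view. All 8 genes were measured, and no filter on low values was applied.

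JQ1 is a small molecule that competes with acetylated lysines for the bromodomains of BET proteins, which recruit the transcription machinery to active genes. MUTZ-5 and MHH-CALL4 are long-established lines, each grown from 1 patient's precursor B cell leukemia, so that each stands for 1 leukemia. The 4 groups were MUTZ-5 cells given 500 nM JQ1, MUTZ-5 cells given the solvent DMSO, MHH-CALL4 cells given 500 nM JQ1 and MHH-CALL4 cells given DMSO, all for 8 hours and with 3 arrays per group. Both lines were kept in the same serum-containing medium. The labels give no information on whether replicates were grown separately, so p-values rest on a spread that may be only technical.

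Chemokines are small secreted proteins that guide migrating cells, and their receptors are membrane proteins that pass the signal on through G proteins of the Gi family. Beta-arrestins, receptor kinases and RGS proteins then shut the signal off. CCL2 attracts monocytes through CCR2. In B lineage cells CXCR4 holds precursors near the CXCL12 of the bone marrow stroma, CXCR5 leads mature cells to CXCL13 in follicles, CCR7 answers to CCL19 and CCL21 in T cell zones, CCR6 to CCL20 and CCR9 to CCL25.

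All values are log2 array signals, and the median gene of each array lay between 8.46 and 8.57. The 12 measured precursor B cell markers averaged between 11.72 and 12.15 in the 12 arrays. MYC, a growth-promoting transcription factor and the gene for which BET inhibition in these cells is best known, differed by -1.32 between JQ1 and DMSO in MUTZ-5 and by -2.05 in MHH-CALL4. The main residual axis set replicate 3 of MHH-CALL4 under JQ1 (score -0.47) opposite replicate 3 of MUTZ-5 under DMSO (score 0.55), and without both the counts of receptors called were the same in each comparison except between lines under JQ1 (3 in place of 2). The files hold no detection calls, so it is not known which of these signals stood above background. Levels of different genes come from different probes and are not compared with each other.

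CCL2 (transcript cluster 7385547) had the same pattern of treatment in both lines, with lower signals on every JQ1 array than on any DMSO array of the line. In MUTZ-5 it read 7.87, 7.46 and 7.90 on the JQ1 arrays, against 10.47, 10.42 and 10.32 on the DMSO arrays. In MHH-CALL4 it read 7.20, 7.38 and 7.62 on the JQ1 arrays, against 9.08, 9.44 and 9.33 on the DMSO arrays. The groups did not overlap in either line, and the DMSO arrays of MUTZ-5 all lay above those of MHH-CALL4. On the JQ1 arrays, MUTZ-5 and MHH-CALL4 overlapped.

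The CCL2 means were 7.74 ± 0.25 under JQ1 and 10.40 ± 0.077 under DMSO in MUTZ-5 (SD, n = 3 each), a 6.34-fold lower level that is given without a test because it chose the gene. In MHH-CALL4, which the choice did not use, the means were 7.40 ± 0.21 under JQ1 and 9.28 ± 0.19 under DMSO. CCL2 fell there by 1.88 on the log2 scale, or 3.69-fold (limma, SE 0.14, 95% interval -2.18 to -1.59, adjusted p = 3.97e-07). It ranked 23 among the decreases called in MHH-CALL4. The order of the group means was MUTZ-5 DMSO, MHH-CALL4 DMSO, MUTZ-5 JQ1 and MHH-CALL4 JQ1, of which only the last pair was not separated by its arrays. MUTZ-5 exceeded MHH-CALL4 by 1.12 under DMSO and by 0.34 under JQ1, and the JQ1 effects of the lines differed by -0.78. These 3 values rest on the arrays that chose the gene and have no test. In whole cultures, less CCL2 RNA per cell and fewer cells making it cannot be told apart.

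**Figure D1:**
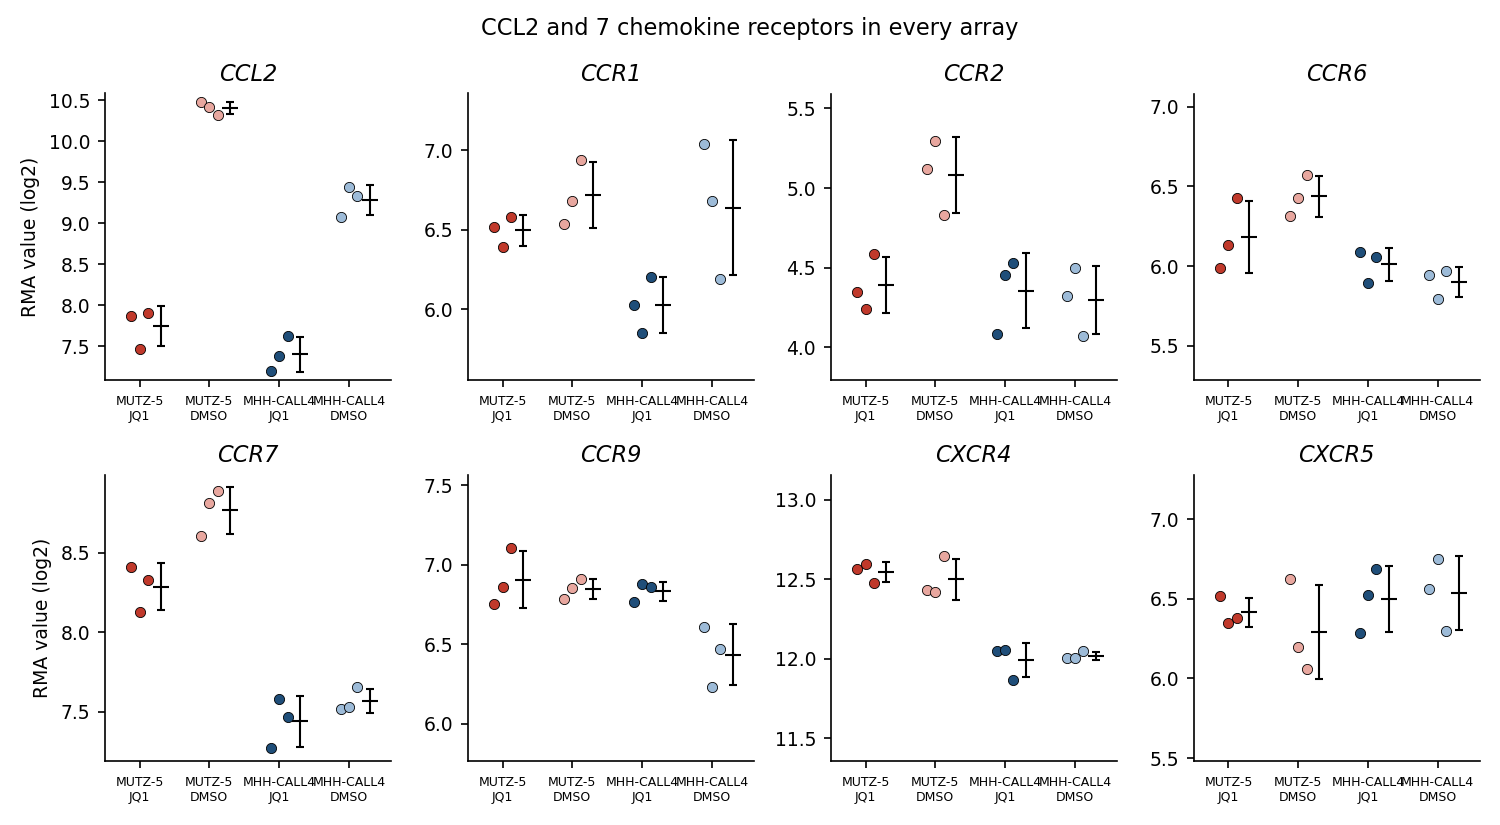
Log2 signal of each of the 8 genes on the 12 core arrays, one panel per gene, with JQ1 left of DMSO and MUTZ-5 left of MHH-CALL4. Points are single arrays and bars are means with SD of 3 arrays. Each panel has its own vertical range, the widest being that of CCL2. CCL2 is lower on all JQ1 arrays of both lines, CCR7 and CCR2 on those of MUTZ-5 only, and the CXCR4 arrays part by line.

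Each array was deposited in 2 forms, a core summary over well-supported exons and an extended summary that adds less certain ones. In the extended form CCL2 in MUTZ-5 read 7.06, 6.91 and 6.97 under JQ1, against 8.75, 8.75 and 8.66 under DMSO. The MHH-CALL4 arrays read 6.69, 6.88 and 7.02 under JQ1, against 7.81, 8.09 and 7.89 under DMSO. The groups still did not overlap, but the differences were smaller, at -1.74 in MUTZ-5 and -1.07 in MHH-CALL4 (limma, adjusted p = 1.44e-06 in MHH-CALL4). How much of the smaller difference comes from the added probes was not tested.

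**Figure D2:**
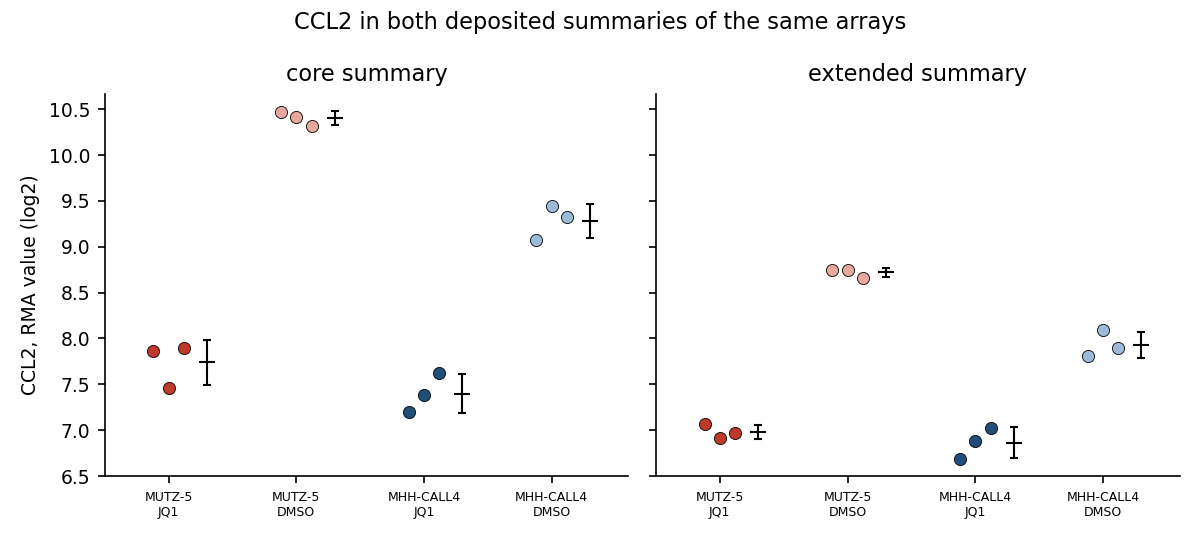
CCL2 on the same 12 arrays in the core and the extended form (log2 signal), JQ1 left of DMSO within each line, points for arrays and bars for means with SD of 3 arrays. JQ1 arrays lie below DMSO arrays in both forms, with a wider gap in the core form (-2.66 in MUTZ-5 and -1.88 in MHH-CALL4) than in the extended form (-1.74 and -1.07).

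In the RefSeq gene order CCL2 is followed by CCL7, CCL11 and CCL8, related chemokines that attract monocytes or eosinophils, and none of them was called lower in either line. On the 12 arrays CCL7 read 4.26 to 4.77 and CCL8 4.79 to 5.62, below the 10th percentile of gene means (5.72). Without detection calls it is not known whether signals this low could show a decrease, so the missing calls of CCL7 and CCL8 say little. CCL11 read 7.28 to 7.85. CCL7 differed between JQ1 and DMSO by -0.18 in MUTZ-5 and 0.016 in MHH-CALL4 (limma, adjusted p = 0.325 and 0.938), and CCL11 by -0.18 and 0.039 (adjusted p = 0.331 and 0.839). CCL8 differed by 0.039 in MUTZ-5 (adjusted p = 0.926) and rose by 0.49 in MHH-CALL4 (adjusted p = 0.0329), a call lost in 6 alternatives, among them the extended form (0.34, adjusted p = 0.156) and the fit without MHH-CALL4 DMSO replicate 1 (0.41, adjusted p = 0.117).

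Across the 7 receptors, the response to JQ1 was small and differed from gene to gene. In MUTZ-5, CCR2 and CCR7 fell and none rose, so that 2 of 7 were called, where 22.0% of all genes were called, 9.06% higher and 13.0% lower. In MHH-CALL4, CCR9 rose and CCR1 fell. With CCL2, 3 of the 8 genes were called there, 1 higher and 2 lower, where 28.5% of all genes were called, 11.0% higher and 17.5% lower. The median receptor difference was -0.22 in MUTZ-5 and -0.03 in MHH-CALL4, against 0.0084 and 0.0066 over all genes. These shares are near the background in both lines.

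CCR2 (cluster 2620842), the receptor of CCL2, fell in MUTZ-5. It read 4.35, 4.24 and 4.59 on the JQ1 arrays, against 5.12, 5.30 and 4.83 on the DMSO arrays. The groups did not overlap. The decrease of 0.69 log2, or 1.61-fold, passed the test (limma, SE 0.15, adjusted p = 0.00449). Its MHH-CALL4 signals were 4.09, 4.45 and 4.53 under JQ1, against 4.32, 4.50 and 4.07 under DMSO. These arrays overlapped, and the difference was 0.06 (95% interval -0.27 to 0.39, limma, adjusted p = 0.813). Only 1.91% of genes had a lower mean signal, so CCR2 lies at the low end of the scale, and its core and extended values are identical.

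CCR1 (cluster 2672096), which binds CCL3 and CCL5 among others, lies in the same gene cluster as CCR2. Their JQ1 differences were not tested against each other. In MUTZ-5 CCR1 read 6.52, 6.39 and 6.58 under JQ1, against 6.54, 6.68 and 6.94 under DMSO, with groups that overlapped and a difference of -0.22 (95% interval -0.60 to 0.15, limma, adjusted p = 0.467). In MHH-CALL4 it read 6.03, 5.85 and 6.20 under JQ1, against 7.04, 6.68 and 6.19 under DMSO. The highest JQ1 array passed the lowest DMSO array by a small margin. The decrease of 0.61 log2, or 1.53-fold, passed the test (limma, adjusted p = 0.018), but it was not called without MHH-CALL4 DMSO replicate 1 (-0.41, adjusted p = 0.0784), without DMSO replicate 2 (-0.59, adjusted p = 0.0637) or without JQ1 replicate 2 (-0.52, adjusted p = 0.0719). In the extended form it was smaller but called (-0.34, adjusted p = 0.0193).

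CCR7 (cluster 3756319), which takes lymphocytes into lymph nodes, fell in MUTZ-5. It read 8.41, 8.13 and 8.33 on the JQ1 arrays, against 8.60, 8.81 and 8.88 on the DMSO arrays. All JQ1 arrays lay below all DMSO arrays, and the means were 8.29 ± 0.15 and 8.77 ± 0.15 (SD, n = 3 each). The decrease of 0.48 log2, or 1.39-fold, passed the test (limma, SE 0.10, adjusted p = 0.00441). The MHH-CALL4 arrays read 7.27, 7.58 and 7.47 under JQ1, against 7.52, 7.53 and 7.66 under DMSO, and these groups overlapped. The difference of -0.13 was not called (95% interval -0.35 to 0.10, limma, adjusted p = 0.406).

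CXCR4 (cluster 2578028), which anchors precursor B cells in the marrow, lay near the top of the scale, above 98.3% of gene means. In MUTZ-5 it read 12.56, 12.60 and 12.48 under JQ1, against 12.43, 12.42 and 12.65 under DMSO. Its MHH-CALL4 signals were 12.05, 12.06 and 11.87 under JQ1, against 12.004, 12.008 and 12.048 under DMSO. JQ1 and DMSO arrays overlapped in both lines. The differences were 0.05 in MUTZ-5 (95% interval -0.13 to 0.22, limma, adjusted p = 0.798) and -0.03 in MHH-CALL4 (95% interval -0.21 to 0.15, adjusted p = 0.84). Neither interval reaches a change of 0.25 log2 units.

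CXCR5 (cluster 3351675), the follicle-homing receptor of mature B cells, read 6.52, 6.35 and 6.38 under JQ1, against 6.62, 6.19 and 6.06 under DMSO in MUTZ-5. In MHH-CALL4 it read 6.28, 6.52 and 6.69 under JQ1, against 6.56, 6.75 and 6.29 under DMSO. The arrays of all groups overlapped. The differences of 0.12 in MUTZ-5 (95% interval -0.20 to 0.45) and -0.04 in MHH-CALL4 (95% interval -0.36 to 0.29) were not called (limma, adjusted p = 0.686 and 0.888).

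CCR6 (cluster 2936657), which brings B cells to mucosal tissue, read 5.99, 6.13 and 6.43 under JQ1, against 6.32, 6.42 and 6.57 under DMSO in MUTZ-5. The MHH-CALL4 arrays read 6.09, 5.89 and 6.06 under JQ1, against 5.94, 5.79 and 5.97 under DMSO. Both pairs of groups overlapped. The difference in MUTZ-5 was -0.26 (limma, adjusted p = 0.13), and of the fits that leave out 1 array it was called only without MUTZ-5 JQ1 replicate 3 (-0.38, adjusted p = 0.0197). In MHH-CALL4 the difference was 0.11 (adjusted p = 0.515).

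CCR9 (cluster 2620736), the gut- and thymus-homing receptor, was the only receptor of the 7 that rose in either line. Its MHH-CALL4 signals were 6.77, 6.88 and 6.86 under JQ1, against 6.61, 6.23 and 6.47 under DMSO, with no overlap. The increase of 0.40 log2, or 1.32-fold, passed the test (limma, adjusted p = 0.0126), and without MHH-CALL4 DMSO replicate 2 it was 0.30 and not called (adjusted p = 0.0644). In MUTZ-5 it read 6.75, 6.86 and 7.10 under JQ1, against 6.78, 6.85 and 6.91 under DMSO. These groups overlapped, with a difference of 0.06 (limma, adjusted p = 0.81). Its ligand CCL25 fell in MHH-CALL4, reading 6.52, 6.63 and 6.76 under JQ1, against 7.52, 7.35 and 7.33 under DMSO (-0.76, limma, adjusted p = 2.80e-05).

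**Figure D3:**
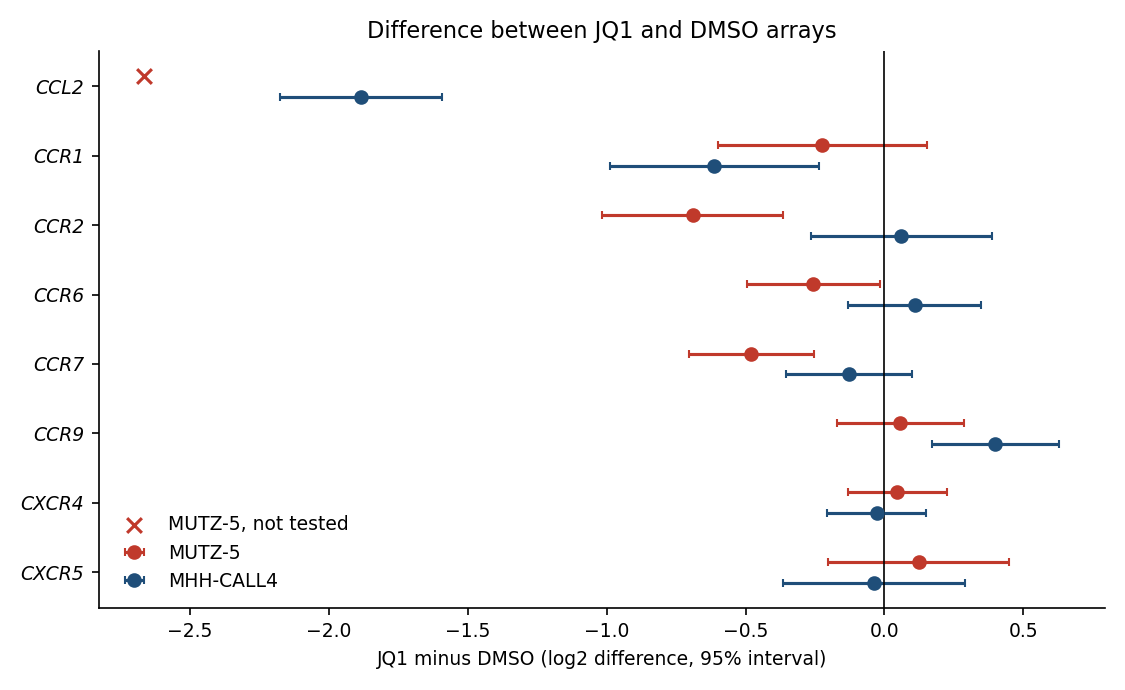
Difference between JQ1 and DMSO means in log2 units for each gene, MUTZ-5 above MHH-CALL4, with unadjusted 95% intervals from the limma fit. The cross marks CCL2 in MUTZ-5, which chose the gene and has no interval. CCL2 in MHH-CALL4 lies at -1.88, while the receptors lie between -0.69 and 0.40.

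No receptor was called for a difference between its JQ1 effects in MUTZ-5 and MHH-CALL4, a contrast in which 1.53% of all genes were called. The lowest value was that of CCR2 at -0.75 (limma, adjusted p = 0.129), which was called only without MUTZ-5 DMSO replicate 3 (-0.88, adjusted p = 0.0476). CCR7 and CCR6 stood at -0.35 and -0.36 (adjusted p = 0.406 and 0.419), CCR9 at -0.34 (adjusted p = 0.437) and CCR1 at 0.39 (adjusted p = 0.661). Before adjustment, 4 of the 7 receptors had a limma p under 0.05, as did 10.5% of all genes. The decreases of CCR7 and CCR2 in MUTZ-5 are therefore not shown to differ from the values in MHH-CALL4. In simulated data only 21.0% of differences of 0.5 log2 were recovered in this contrast, against 98.6% of differences of 1. The simulated noise was independent between arrays, whereas the main residual axis held 43.9% of the variation within groups. The simulated shares therefore do not give the recovery in the data.

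Under DMSO 5 of the 7 receptors were higher in MUTZ-5 than in MHH-CALL4, where 23.4% of all genes were called and 11.9% were called higher. CCR7 exceeded its MHH-CALL4 level by 1.20, or 2.29-fold (8.77 ± 0.15 in MUTZ-5 and 7.57 ± 0.078 in MHH-CALL4, SD, n = 3 each, limma, adjusted p = 1.11e-06). CXCR4 exceeded it by 0.48, or 1.39-fold (12.50 ± 0.13 and 12.02 ± 0.024, adjusted p = 6.16e-04). For both genes the arrays of the lines did not overlap. CCR2 was higher by 0.79 (adjusted p = 0.00151), CCR6 by 0.54 (adjusted p = 0.0027) and CCR9 by 0.41 (adjusted p = 0.0114), the last not called without MHH-CALL4 DMSO replicate 2 (0.31, adjusted p = 0.059). CCR1 and CXCR5 differed by 0.08 and -0.24 (limma, adjusted p = 0.796 and 0.287).

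Under JQ1 the difference between lines was called for 2 of the 7 receptors, both higher in MUTZ-5, where 19.9% of all genes were called and 11.7% were called higher. They were CCR7, at 0.85 or 1.80-fold (limma, adjusted p = 3.58e-05), and CXCR4, at 0.55 or 1.47-fold (adjusted p = 1.92e-04). The differences of CCR2, CCR6 and CCR9 were 0.04, 0.17 and 0.07 under JQ1 (adjusted p = 0.952, 0.39 and 0.803). CCR1 differed by 0.47 (limma, adjusted p = 0.0802) with no overlap of arrays. It was called in 4 alternatives, among them a fit of only the 6 JQ1 arrays (limma, adjusted p = 0.0162). In the extended form the CCR1 difference was 0.18, was not called, and the arrays of the lines overlapped. The comparison of lines under DMSO uses the same DMSO arrays as the comparisons with JQ1, so the values of CCR2 and CCR7 in MUTZ-5 and of CCR9 in MHH-CALL4 are not independent between them.

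Of 6 measured of 11 further chemokine receptors, none was called in MUTZ-5 (22.0% of all genes) and 2 in MHH-CALL4 (28.5% of all genes). In MHH-CALL4 CXCR3, a receptor of activated lymphocytes, fell by 0.48 (limma, adjusted p = 0.00245). CX3CR1, the fractalkine receptor, rose there by 0.56 (adjusted p = 0.0265), a call lost in the extended form (0.33, adjusted p = 0.158) and without MHH-CALL4 DMSO replicate 2 (0.36, adjusted p = 0.129). Among 5 atypical receptors, which bind chemokines without Gi signalling, none was called in MUTZ-5. In MHH-CALL4 the scavenger ACKR2 rose by 0.39 (adjusted p = 0.00513) and CCRL2 fell by 0.55 (adjusted p = 0.038), and CCRL2 was not called in 9 alternatives, such as without MHH-CALL4 DMSO replicate 2 (-0.37, adjusted p = 0.184).

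Apart from CCL2, the only chemokines called lower were CCL25 and CXCL16, both in MHH-CALL4. Of all genes 13.0% were called lower in MUTZ-5 and 17.5% in MHH-CALL4, and 9.06% and 11.0% were called higher. Of 17 measured of 23 other CC chemokines, none was called in MUTZ-5 and CCL8 rose and CCL25 fell in MHH-CALL4, with list medians of -0.053 and 0.055. Of 15 measured of 20 CXC, XC and CX3C chemokines, none was called in MUTZ-5. In MHH-CALL4 CXCL3, CXCL5, CXCL9 and CXCL14 rose by 0.29 to 0.39 while CXCL16 fell by 0.44 (limma, adjusted p = 0.0195). CXCL11 had the largest difference there, at 0.64, but was called only without MHH-CALL4 JQ1 replicate 1 (1.05, limma, adjusted p = 0.00348). Without MHH-CALL4 DMSO replicate 2 the differences of CXCL5, CXCL9, CXCL14 and CXCL16 were 0.21, 0.29, 0.24 and -0.41 and were not called (adjusted p = 0.184, 0.12, 0.158 and 0.0754). CXCL12, the CXCR4 ligand, differed by 0.075 in MUTZ-5 and 0.044 in MHH-CALL4 (adjusted p = 0.696 and 0.773). CCL19, CCL21, CCL20, CXCL13 and CCL5, further ligands of these receptors, lay between -0.19 and 0.33 in both lines with no call, while CCL7 and CCL8, which bind CCR2 as CCL2 does, and the CCR9 ligand CCL25 had the values given above.

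Genes downstream of the receptors were called in both directions. Of 21 measured of 23 genes of receptor signalling, 2 rose and 7 fell in MUTZ-5, and 2 rose and 8 fell in MHH-CALL4, with medians of -0.070 and -0.077. Of all genes, 9.06% were called higher and 13.0% lower in MUTZ-5, and 11.0% and 17.5% in MHH-CALL4. GNAI2, the Gi subunit that couples chemokine receptors, rose by 0.38 in MUTZ-5 and 0.26 in MHH-CALL4 (limma, adjusted p = 0.00312 and 0.0245). In MHH-CALL4 it was not called without DMSO replicate 2, DMSO replicate 3, JQ1 replicate 1 or JQ1 replicate 2 (adjusted p = 0.0902, 0.0732, 0.082 and 0.0513). ELMO1, which works with DOCK2 to activate Rac, fell by 0.52 in MUTZ-5 and 0.67 in MHH-CALL4 (adjusted p = 8.29e-04 and 9.21e-05). The exchange factor VAV1 fell by 0.52 and 0.50 (adjusted p = 2.29e-04 and 2.40e-04). In MHH-CALL4 the kinase PTK2B fell by 0.61 (adjusted p = 7.81e-05) and the phospholipase PLCB2 by 0.60 (adjusted p = 0.00172) or, in the extended form, 0.38 (adjusted p = 0.0149), while in MUTZ-5 they differed by -0.095 and -0.12 (adjusted p = 0.513 and 0.585).

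Over all genes 22.0% were called in MUTZ-5 and 28.5% in MHH-CALL4. Of 14 measured of 15 genes that end receptor signalling, 3 rose and 7 fell in MUTZ-5, and 1 rose and 6 fell in MHH-CALL4, with medians of -0.21 and -0.076. Of those that fell in both lines, GRK6, RGS14 and RGS19 were not called in the extended form in either line. ARRB1, a beta-arrestin, read 10.06, 9.98 and 10.01 under JQ1, against 11.27, 11.12 and 11.26 under DMSO in MUTZ-5. In MHH-CALL4 it read 9.46, 9.40 and 9.59 under JQ1, against 10.87, 11.02 and 10.91 under DMSO. It fell by 1.20 in MUTZ-5 and by 1.45 in MHH-CALL4, with no overlap in either line (limma, adjusted p = 2.10e-07 and 2.61e-08).

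The receptor kinases went both ways. GRK3 fell by 0.49 in MUTZ-5 and 0.78 in MHH-CALL4 (limma, adjusted p = 0.003 and 6.29e-05), and GRK2 by 0.31 and 0.45 (adjusted p = 0.00534 and 2.59e-04). GRK5 rose by 0.56 and 0.70 (adjusted p = 5.11e-04 and 5.89e-05). Of the RGS proteins, which speed the return of G proteins to rest, RGS19 fell by 1.06 and 0.83 (adjusted p = 1.48e-06 and 9.40e-06), but in the extended form it was not called in either line (-0.21 and -0.12, adjusted p = 0.0747 and 0.284).

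RGS1, which dampens chemokine responses of B cells, fell in MUTZ-5, reading 5.69, 5.92 and 5.72 under JQ1, against 6.96, 7.13 and 8.36 under DMSO. It fell by 1.71, or 3.26-fold (limma, adjusted p = 3.38e-04), and by 1.27 without MUTZ-5 DMSO replicate 3, the highest array. The MHH-CALL4 arrays read 5.04, 4.85 and 4.82 under JQ1, against 4.94, 4.73 and 4.99 under DMSO, with a difference of 0.015 (adjusted p = 0.976). These MHH-CALL4 signals lay below the 10th percentile of gene means (5.72), and whether a decrease could show there is not known. RGS2 rose in MUTZ-5 by 0.76 (adjusted p = 1.84e-04), or 0.40 in the extended form (adjusted p = 0.00943), and differed by 0.092 in MHH-CALL4 (adjusted p = 0.58). Among 7 measured of 9 other receptors that position B cells, 2 fell in MUTZ-5 and 3 in MHH-CALL4. Of all genes 13.0% and 17.5% were called lower there. GPR174, a lysophosphatidylserine receptor, was called in both lines, falling by 0.45 and 1.23 (limma, adjusted p = 0.0015 and 2.79e-07). The other calls were less stable, since S1PR4 kept its call in 7 of 23 alternatives in MUTZ-5 and in 18 of 23 in MHH-CALL4, and S1PR2 in 11 of 23 in MHH-CALL4.

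**Figure D4:**
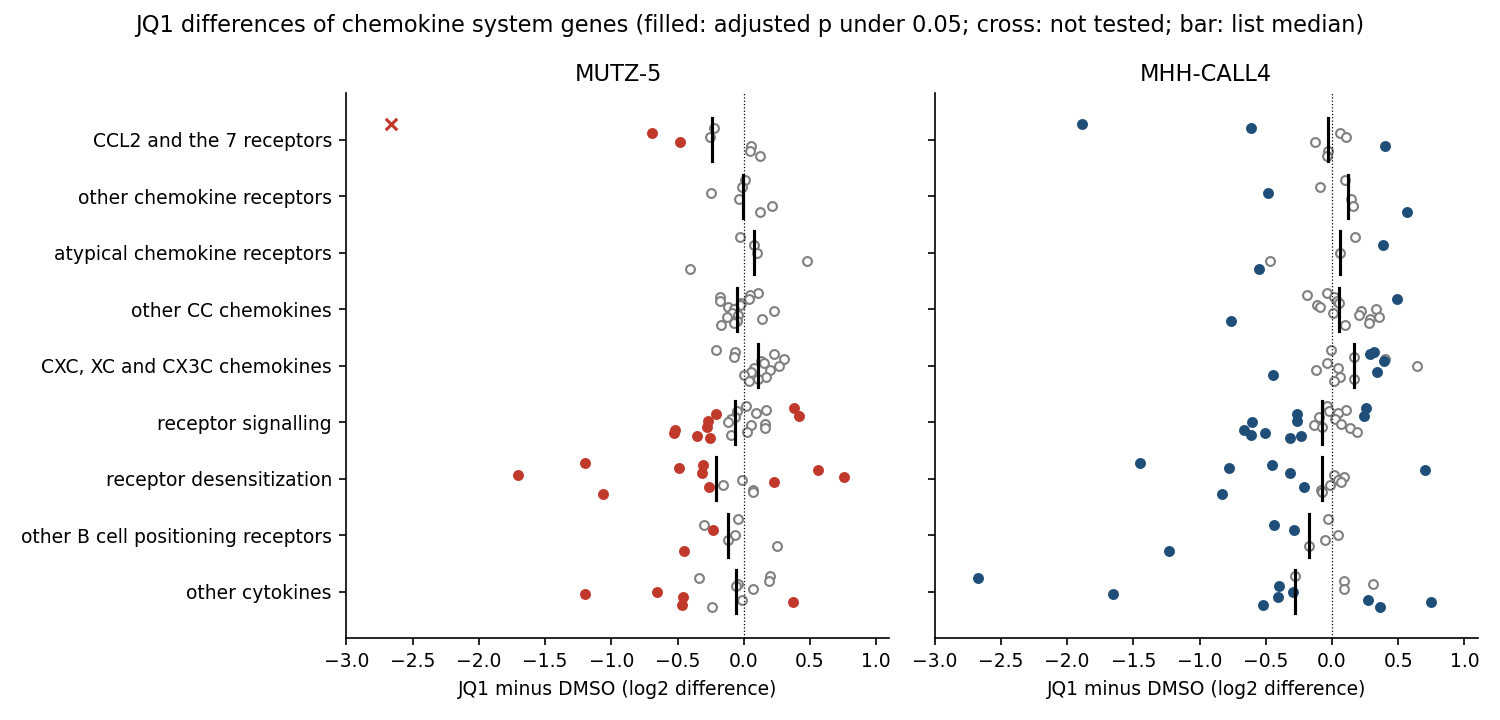
Difference between JQ1 and DMSO in log2 units for every measured gene of the chosen set and the gene lists, with MUTZ-5 in the left panel and MHH-CALL4 in the right. Points are genes, filled where the limma adjusted p is under 0.05, bars are list medians, and the cross is CCL2 in MUTZ-5, which was not tested. In MUTZ-5 no other chemokine is filled, and in MHH-CALL4 the lowest other chemokine is CCL25 at -0.76, against -1.88 for CCL2.

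Because monocytes and stromal cells are the usual sources of CCL2, markers of other cells were set beside it. For scale, 22.0% of all genes were called in MUTZ-5 and 28.5% in MHH-CALL4. Of 9 measured of 12 monocyte and macrophage markers, only VCAN, a matrix proteoglycan, was called in MUTZ-5, falling by 1.58 (limma, adjusted p = 1.47e-06). In MHH-CALL4 VCAN fell by 0.85 and LYZ by 0.83 (adjusted p = 2.17e-04 and 7.23e-05), VCAN by 0.46 in the extended form (adjusted p = 0.00702). The defining markers CD14 and CSF1R differed by at most 0.04 in either line with no call. The mean of the list ranged from 7.46 to 7.53 under JQ1, against 7.59 to 7.65 under DMSO in MUTZ-5, and from 7.06 to 7.18 under JQ1, against 7.24 to 7.36 under DMSO in MHH-CALL4. The list mean was lower on every JQ1 array than on every DMSO array of its line, while the median difference of its 9 genes was 0.043 in MUTZ-5 and 0.0043 in MHH-CALL4, so that the lower means come from VCAN and, in MHH-CALL4, LYZ.

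Of 8 stromal and endothelial markers only PDGFRB was called, falling by 0.66 in MUTZ-5 and 0.85 in MHH-CALL4 (limma, adjusted p = 1.99e-04 and 1.67e-05). The mean of that list ranged from 7.04 to 7.16 under JQ1, against 7.01 to 7.19 under DMSO in MUTZ-5, and from 6.97 to 7.19 under JQ1, against 7.09 to 7.11 under DMSO in MHH-CALL4, so its groups overlapped. Of 10 T and NK cell markers only NKG7 was called, falling by 0.64 and 0.96 (adjusted p = 1.84e-04 and 4.15e-06). Of 12 measured precursor B cell markers, 2 rose and 5 fell in MUTZ-5 (22.0% of all genes were called), and 5 fell in MHH-CALL4 (28.5%). Their list mean ranged from 11.72 to 11.76 under JQ1, against 11.89 to 11.98 under DMSO in MUTZ-5, and from 11.81 to 11.86 under JQ1, against 12.01 to 12.15 under DMSO in MHH-CALL4. The part of any of these markers in the CCL2 values was not tested.

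CCL2 and CCR7 were the only genes of the 8 whose group means spanned at least 1 log2 unit. Among 1272 genes of such a span, those with the pattern most like CCL2 over the 12 arrays were SLC38A5, an amino acid transporter (Pearson r = 0.98), CYBB, the catalytic subunit of the phagocyte NADPH oxidase (r = 0.98), and APOBEC3C, a cytidine deaminase (r = 0.97). SLC38A5 averaged 8.80 under JQ1 and 10.51 under DMSO in MUTZ-5, and 8.17 under JQ1 and 9.74 under DMSO in MHH-CALL4. CYBB averaged 7.14 and 8.71 in MUTZ-5, and 6.93 and 7.85 in MHH-CALL4, in the same order. Most like CCR7 were LZTS1 (r = 0.99), the Wnt inhibitor DKK1 (r = 0.98) and the receptor tyrosine kinase ERBB3 (r = 0.98). These correlations describe 12 arrays that share 2 lines and 2 treatments and carry no test.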

How the data were processed

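The deposited values are RMA log2 signals that the authors made with Affymetrix Expression Console, per the submitters' processing notes. Its version, the build and which arrays were normalized together are not given in the sources used here. Each of the 12 arrays was deposited in a core and an extended form, 24 columns in all, which count as 1 replicate. Of 22011 core transcript clusters, 14432 had 1 symbol, and for 197 genes with several such clusters the one of highest mean was kept, leaving 14232 genes. Symbols were checked through RefSeq (GRCh38.p14), used only for names and gene order. The array number limits the precision.

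Group means were estimated from the core arrays by limma (version 3.58.1, run in R 4.3.3, default lmFit and eBayes). Two-sided p-values were adjusted over all genes after Benjamini and Hochberg, and 0.05 was the threshold for a call. The members, gene lists and naming rule were chosen with earlier results of these data known. The rule named the members, their ligands, MYC, up to 6 called genes per list with a change of at least 0.5, and the 3 genes most like a member. Where a list had no such gene, the rule named its 2 largest changes, here CXCL11 and CXCL16. GNAI2, GRK2, GRK6, RGS14, S1PR2, S1PR4, CXCR3, ACKR2, CCL11, CCL28, CXCL3, CXCL5, CXCL9, CXCL14, LTB and the markers stand outside the rule. They were chosen after their values were seen. Alternatives were the extended form, median centring, cyclic loess, 2 filters on low signals, trended and robust eBayes, only the arrays compared, all clusters, the cluster of largest variance, a replicate block and leaving out each array. On simulated data 65.8% of effects of 0.5 log2 were recovered in MUTZ-5 and 78.8% in MHH-CALL4. The simulation had far fewer changed genes, with 179 and 195 calls against 3138 and 4057 in the data. Its threshold was therefore stricter, and these shares do not give the recovery in the data.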

Additional observations from a re-analysis of the deposited data

Results flagged for a closer look

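No receptor met a rule for a closer look, and the search for single outlying values per gene does not extend to groups of 3 arrays. The JQ1 effects of both lines differed by the limma contrast of the effects, in which 1.53% of all genes were called, for 8 of the genes named here. Many of the named genes were picked for large JQ1 changes on the same arrays. The count of 8 therefore cannot be set against the share of all genes. The difference, MUTZ-5 minus MHH-CALL4, was 2.34 for IL1B (adjusted p = 6.21e-06), 0.78 for GPR174 (adjusted p = 0.00364), 1.03 for LYZ (adjusted p = 0.00317) and 0.71 for CCL25 (adjusted p = 0.00991), each of which was called lower in MHH-CALL4. The call of CCL25 was lost in 1 alternative, the replicate block (limma, adjusted p = 0.0663). Its mean was 6.74 in MUTZ-5 and 7.40 in MHH-CALL4 under DMSO, and 6.64 in MHH-CALL4 under JQ1. The MUTZ-5 signal of CCL25 thus lay near the treated level of MHH-CALL4 without JQ1. The part of such starting levels in these differences was not tested. For MYC the difference was 0.73 (limma, adjusted p = 0.00112), and MYC was called lower in both lines. For RGS1 it was -1.72 (adjusted p = 0.0334), for PTK2B 0.51 (adjusted p = 0.0408) and for RGS2 0.67 (adjusted p = 0.048), and these 3 calls were lost under most of the alternatives.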

How the results depend on the processing

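No called difference of a gene followed here (the 8 genes in all comparisons, named list genes in those with JQ1) was reversed. CCL2 in MHH-CALL4 stayed called throughout, at -2.00 to -1.07 (limma, adjusted p = 5.06e-08 to 2.1e-05), and in MUTZ-5 it lay between -2.74 and -1.74, the smallest size being that of the extended form. Testing only genes at or above the median signal removed receptors by construction and left 0 called in MUTZ-5, 1 between lines under DMSO, 1 between lines under JQ1 and 1 of the 8 genes in MHH-CALL4. At or above the 25th percentile these were 1 in MUTZ-5, 2 under DMSO and 1 in MHH-CALL4. With the median filter, 136 genes were called for the difference of effects, 37 of them lower, and 1061 were higher in MUTZ-5 under DMSO. Deviations of same-numbered samples correlated at -0.44 to -0.17 in MUTZ-5 and 0.070 to 0.30 in MHH-CALL4, which is not above 0.1 in every pair, so the numbers were not taken to pair them. With the replicate block 136 genes were called for the difference of effects, 86 higher and 50 lower, CCR6 was called in MUTZ-5 (adjusted p = 0.0463), and the calls of CCL25 for the difference of effects (adjusted p = 0.0663) and of GNAI2 in MHH-CALL4 (adjusted p = 0.0547) were lost. Leaving out 1 array gave 1007 to 1841 genes higher and 1 to 3 of the 8 genes called in MHH-CALL4, and for the difference of effects 157 to 360 genes, 102 to 262 higher, 55 to 98 lower and 0 to 1 receptors. With both replicates 3 that stand apart left out together (MHH-CALL4 under JQ1 and MUTZ-5 under DMSO), an alternative chosen after seeing the data, 222 genes were higher for the difference of effects, and 3 receptors in place of 2 were called between lines under JQ1, the other receptor counts being the same. Lower calls made up 58.9% in MUTZ-5 and 61.5% in MHH-CALL4, 48.5% and 51.5% after median centring, and 55.6% and 56.0% after cyclic loess. Signals without detection calls limit what can be said of CCR2 and of other genes low on the scale.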

Other observations

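Other cytokines also changed. Of 13 measured of 16, 1 rose and 4 fell in MUTZ-5, and 3 rose and 6 fell in MHH-CALL4. Of all genes, 9.06% were called higher and 13.0% lower in MUTZ-5, and 11.0% and 17.5% in MHH-CALL4. LTA, which encodes lymphotoxin alpha, read 8.34, 8.22 and 8.31 under JQ1, against 9.58, 9.28 and 9.61 under DMSO in MUTZ-5. In MHH-CALL4 it read 8.23, 8.26 and 8.38 under JQ1, against 10.07, 9.85 and 9.91 under DMSO. It fell by 1.20 and 1.66 (limma, adjusted p = 1.43e-06 and 5.85e-08), and LTB fell by 0.46 and 0.41 (adjusted p = 5.81e-04 and 0.00104). TNF fell by 0.66 in MUTZ-5 and 0.29 in MHH-CALL4 (adjusted p = 2.29e-04 and 0.035), the MHH-CALL4 call being lost in 7 alternatives, among them the fit without JQ1 replicate 2 (-0.22, adjusted p = 0.151). VEGFA, an angiogenic factor, fell by 0.47 and 0.52 (adjusted p = 0.00141 and 5.30e-04), and in the extended form it fell by 0.32 in MHH-CALL4. IL1B fell by 2.67 in MHH-CALL4 (adjusted p = 6.50e-09), where it read 7.36, 7.26 and 7.24 under JQ1, against 10.03, 9.91 and 9.95 under DMSO. In the extended form it fell by 1.78. In MUTZ-5 IL1B differed by -0.34 (adjusted p = 0.052) and was called in 3 alternatives, among them the fit without MUTZ-5 JQ1 replicate 3 (-0.50, adjusted p = 0.0009). Under DMSO IL1B was already far lower in MUTZ-5 than in MHH-CALL4, where line differences of the measured cytokines reached -2.73. The part of this starting level in the smaller MUTZ-5 difference of IL1B was not tested. TGFB1 rose by 0.37 in MUTZ-5 and 0.75 in MHH-CALL4 (adjusted p = 0.00559 and 1.82e-05).

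CCL28, a mucosal chemokine, parted the lines rather than the treatments. It read 9.64, 9.39 and 9.14 under JQ1, against 9.54, 9.43 and 9.71 under DMSO in MUTZ-5, and 6.34, 6.20 and 6.26 under JQ1, against 6.33, 6.11 and 6.07 under DMSO in MHH-CALL4.

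A further transcript cluster of CCR6 (2936639) is present in the extended form alone. It read 6.70, 6.97 and 6.40 under JQ1, against 6.44, 6.03 and 7.41 under DMSO in MUTZ-5, and 6.33, 6.59 and 6.41 under JQ1, against 5.42, 5.60 and 6.57 under DMSO in MHH-CALL4, with overlap in both lines.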
